A study of Aliger gigas with 7 samples.

Results

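The titles described here name proteins that make RNA, build ribosomes and unwind or degrade RNA, as measured in the ovaries of 7 wild queen conchs, large marine snails, from the Florida Keys. Of the 4328 gene titles in the deposited table, 74 were taken because the title names the nucleolus, rRNA, ribosome biogenesis, an RNA polymerase, a DEAD or DEAH box protein, an exosome component, fibrillarin or a ribonuclease. Titles with the letters splic were left out. The 3 nearshore animals came from Tingler Island, where reproduction is impaired. The labels call NF1 and NF3 normal females, while NM3 appeared to be an imposex female, that is, a female with male sexual characters. The 4 offshore animals, OF1 to OF4, came from Pelican Shoal, where reproduction is normal, and all were normal females by their labels. All 7 were mature adults taken in the field with no experimental treatment, and each array held the labelled RNA of 1 ovary. The 3 nearshore animals share a site, as do the 4 offshore animals, so site and any other difference between these collections cannot be told apart.

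RNA polymerase I makes the large ribosomal RNA precursor in the nucleolus, polymerase II makes messenger RNA, and polymerase III makes 5S and transfer RNA. In the nucleolus, small nucleolar ribonucleoproteins, the processome, methyltransferases and many RNA helicases modify, fold and cut the precursor, and the exosome trims or degrades RNA from its 3′ end. Growing oocytes are known for large nucleoli, because an egg stores ribosomes for the embryo. DEAD and DEAH box proteins use ATP to unwind RNA or strip proteins from it, and they serve every step from transcription to decay.

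Sorted by name, the 74 titles comprise 7 RNA polymerase subunits, 9 polymerase-associated factors, 22 nucleolar and rRNA-processing proteins, 7 exosome subunits, 16 DEAD or DEAH box helicases and 7 ribonucleases. The other 6 were caught by a word only and name bacterial-type polymerase chains, a deoxyribonuclease, a reverse transcriptase or a ribosome constituent. A title is the name the authors attached to a conch sequence, often from another species, so it marks a match and not a proven conch orthologue. Values are the deposited log2 signals, and the log base was read as 2 from their range. A log2 fold change, or log2 change, is the nearshore mean minus the offshore mean, so a positive one is higher nearshore. A title is said to have risen or fallen where limma's p was under 0.05 after Benjamini-Hochberg adjustment across the whole table of 4328 titles. SE stands for limma's moderated standard error.

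Mean log2 signals of the arrays ran from 5.83 to 5.89 nearshore and were 5.89 on each offshore array. Array NM3 lacked 45 of its values, and 3 of the 74 titles, DEAD Box Polypeptide 56, the 21kDa subunit of ribonuclease P and the RLP24 title, have no value there, so their fits rest on 2 nearshore animals. Of the 74 titles, 71 have all 7 values, and none was dropped for a low signal. Vitellogenin 2, the yolk precursor that marks a female gonad, had log2 signals of 12.69 in NF1, 17.03 in NF3 and 16.35 in NM3, against 16.81 to 17.34 in the 4 offshore animals. Markers of some other tissues moved with the site. By their medians, matrix, muscle and the 2 nerve titles were higher in every nearshore than in every offshore animal, the nerve titles only just. The egg and ovary medians were lower in every nearshore than in every offshore animal, and so, only just, were the testis medians. The digestive gland and haemocyte medians overlapped between the sites. Of 9 matrix titles 3 rose and 0 fell, and of 11 muscle titles 3 rose and 0 fell, where 3.9% of all titles rose and 5.34% fell. Of 24 testis titles 2 rose and 3 fell, of 20 digestive gland titles 1 rose and 1 fell, of 11 haemocyte titles 1 rose and 1 fell, and of 2 nerve titles 1 rose. The median deviation of the matrix titles from their offshore mean was 1.30 to 2.08 nearshore and -0.43 to 0.64 offshore, and that of the muscle titles 0.85 to 1.38 nearshore and -0.68 to 0.31 offshore. The 19 digestive gland titles with a value in every array stood at -0.17 to 0.44 nearshore and -0.18 to 0.19 offshore. The 11 haemocyte titles stood at -0.04 to 0.23 nearshore and 0.07 to 0.25 offshore. The 24 testis titles stood at -0.36 to -0.09 nearshore and -0.09 to 0.11 offshore, and the 2 nerve titles at 0.30 to 1.13 nearshore and -0.55 to 0.27 offshore. Of 9 egg and ovary titles 0 rose and 1 fell, and their median deviation was -2.27 to -0.18 nearshore and -0.13 to 0.01 offshore. The one that fell was Cell Division Cycle 2, with a log2 fold change of -4.29 (adjusted p = 0.0304 in limma). Bol, Boule-like went the other way, at 1.34, and did not pass (adjusted p = 0.0804). The part of tissue makeup in the values below was not tested, and in whole ovaries fewer cells of a type and less RNA per cell cannot be told apart.

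The comparison asked which of these titles differed between nearshore and offshore ovaries. A polymerase II subunit, a subunit shared by all 3 nuclear polymerases and the helicase DEAD Box Polypeptide 48 rose nearshore, and Exosome Component 1 and Ribonuclease H1 fell. The other 69 did not pass. The 5 that passed are 6.76% of the 74, against 9.24% of all 4328 titles, with 3 higher and 2 lower, where 3.9% of all titles were higher and 5.34% lower. The share called among these titles was thus not above that of the table. Nearshore and offshore values were fully separate for 20 of the 74 titles (27%), 8 higher and 12 lower nearshore, against 24.4% of all titles. Calls were more frequent among brighter titles. Of the 51 titles whose mean lay above the table's median signal, 4 passed (7.84%), where 14.9% of all such titles did, and of the 23 below it 1 passed (4.35%), where 3.56% of all such titles did. The count depended on single arrays: it was 0 without NF1, OF3 or OF4, 1 without OF2, 2 without NF3 or NM3 and 4 without OF1, while 0.786% to 6.98% of all titles passed in these 7 fits.

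**Figure D1:**
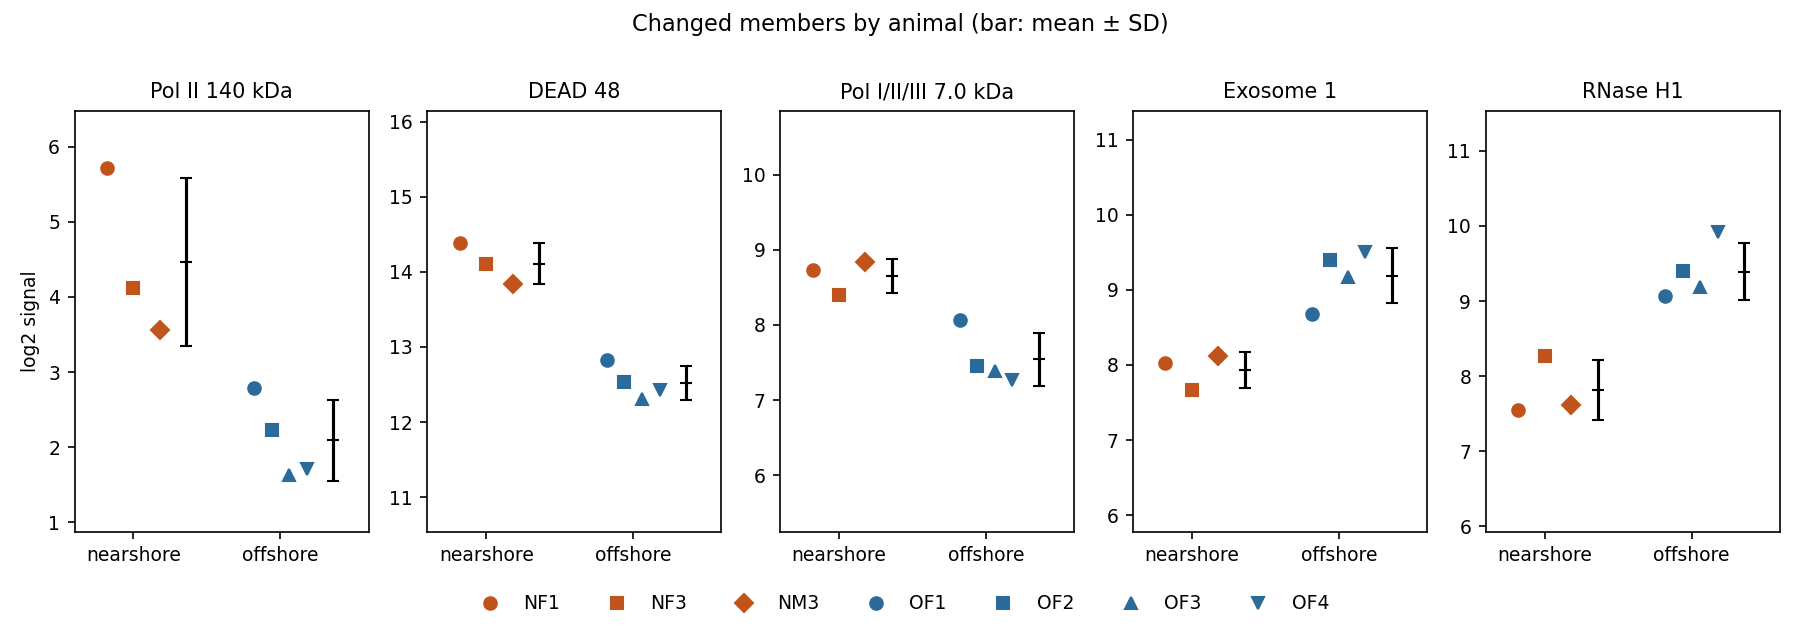
Log2 signal of the 5 titles that passed, by animal, nearshore at the left and offshore at the right of each panel, with bars for the mean ± SD (n = 3 and n = 4). Every panel spans the same number of log2 units. In each panel the 2 groups do not overlap, and the first 3 panels show the titles that rose.

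Means were more often lower than higher nearshore. Of the 74 titles, 48 (64.9%) had a lower mean nearshore and 26 a higher one, and the median log2 fold change was -0.24, against 50.6% lower and a median of -0.01 over all titles. Without NF1 the median was -0.10, with 41 means lower and 33 higher, without OF2 it was -0.15, and without OF1 it was -0.40, with 51 lower and 23 higher. By animal the sites were not separate. The median deviation from the offshore mean over the 71 complete titles read -0.42 in NF1, -0.08 in NF3 and -0.12 in NM3, against -0.28, 0.13, 0.04 and 0.11 in OF1 to OF4. OF1 thus stood below NF3 and NM3.

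**Figure D2:**
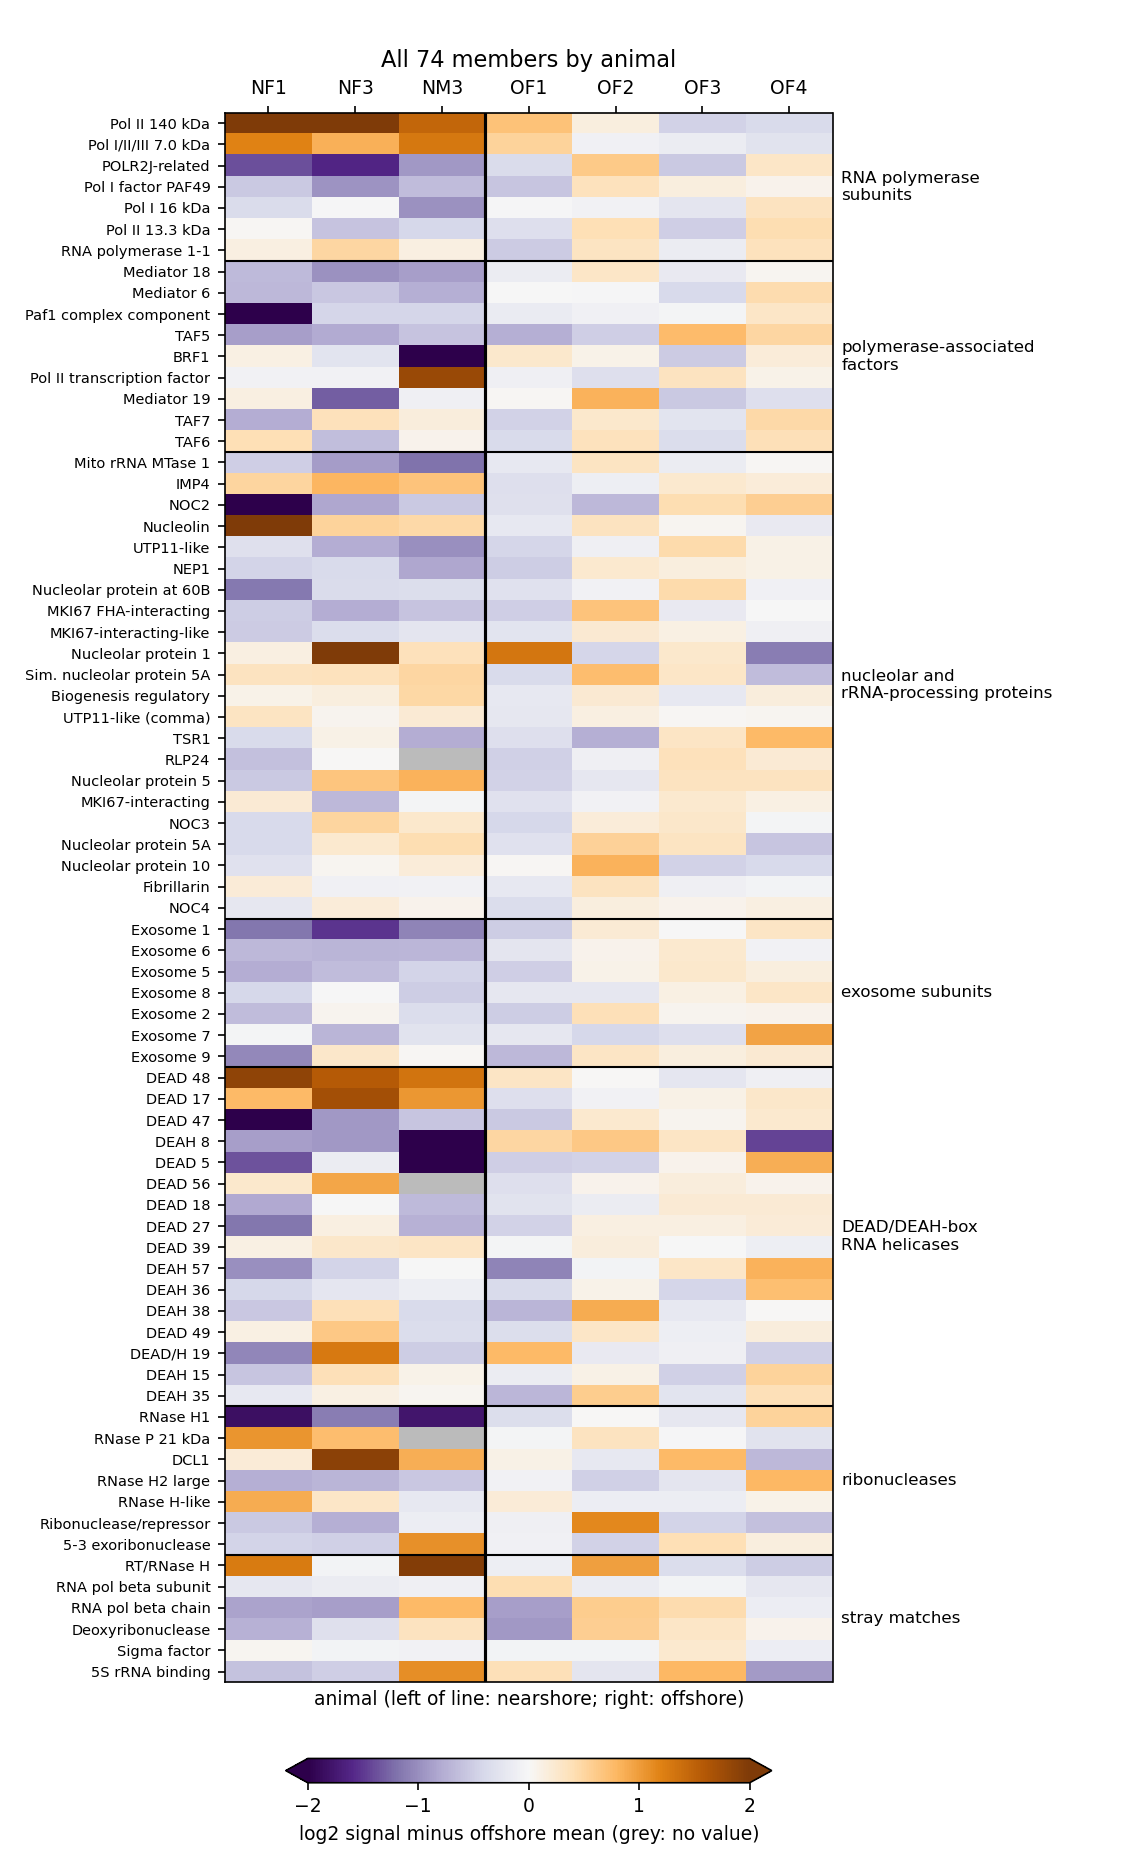
Log2 signal minus the offshore mean for all 74 titles (rows, by role and then by p) in each animal (columns, nearshore left of the line), with grey for the 3 values missing in NM3 and the titles caught by a word only at the bottom as stray matches. The 5 rows that passed are the top rows of their roles, and the columns of NF1 and OF1 hold the lowest medians, -0.42 and -0.28.

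Among the 7 RNA polymerase subunits, 2 rose and 0 fell (28.6% passed, against 9.24% of all titles), a share that rests on 2 titles. The median log2 fold change was -0.32. The title Similar To DNA-directed RNA Polymerase II 140 KDa Polypeptide names the second-largest subunit of polymerase II, which forms the catalytic cleft together with the largest. Its log2 signal read 5.72 in NF1, 4.12 in NF3 and 3.56 in NM3, against 2.79, 2.23, 1.64 and 1.71 in OF1 to OF4. Every nearshore animal was above every offshore animal, and NF1 was the highest by a wide margin. The mean was 4.47 ± 1.12 (SD, n = 3) nearshore and 2.09 ± 0.54 (n = 4) offshore, a log2 change of 2.37 (SE 0.55, adjusted p = 0.0419), or 5.19-fold. Without NF1 the change was 1.75 (adjusted p = 0.0768), and the call held in 1 of the 7 fits that left out 1 array, that without NM3. All of its signals but that of NF1 lay below the table's median of 5.17, and how far they stood above background is not known, so the fold is uncertain.

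The title Similar To DNA-directed RNA Polymerases I, II, And III 7.0 KDa Polypeptide names a small zinc-binding subunit that all 3 nuclear polymerases share. Its signal read 8.74 in NF1, 8.40 in NF3 and 8.83 in NM3, against 8.06, 7.45, 7.39 and 7.27 in OF1 to OF4. The nearshore animals were close to one another, and OF1 was the nearest of the offshore animals to them. The log2 fold change was 1.12 (SE 0.28, adjusted p = 0.0493), or 2.17-fold. This call sat at the threshold and passed in 3 of the 10 alternatives that kept every array. It was lost, for example, after quantile normalization (adjusted p = 0.0543), median centring (0.0524) and cyclic loess (0.0602), and held without 1 array only when OF1 was left out.

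Of the other 5 subunits 0 passed, and 4 had lower means nearshore. DNA Directed RNA Polymerase II Polypeptide J-related Gene, named after a small polymerase II subunit that pairs with another in the assembly core, had 6.64 in NF1, 6.41 in NF3 and 7.08 in NM3, against 7.65, 8.64, 7.48 and 8.30 in OF1 to OF4. The groups did not overlap, but the log2 fold change of -1.31 (SE 0.36, adjusted p = 0.0657) missed the threshold. The title Similar To RNA Polymerase I-associated Factor PAF49, a polymerase I component that helps the enzyme start, had 9.15 in NF1, 8.72 in NF3 and 9.04 in NM3, against 9.12, 10.03, 9.83 and 9.76 in OF1 to OF4. OF1 lay inside the nearshore range, and the log2 fold change was -0.72 (95% interval -1.39 to -0.04, adjusted p = 0.166). Similar To DNA-directed RNA Polymerase I 16 KDa Polypeptide had 8.16 in NF1, 8.51 in NF3 and 7.55 in NM3, against 8.51, 8.46, 8.29 and 8.87 in OF1 to OF4, and its log2 fold change was -0.46 (adjusted p = 0.390), or -0.20 without NM3. The other title for polypeptide J had a log2 fold change of -0.32 and RNA Polymerase 1-1 at 0.25, both with intervals that span 0.

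**Figure D3:**
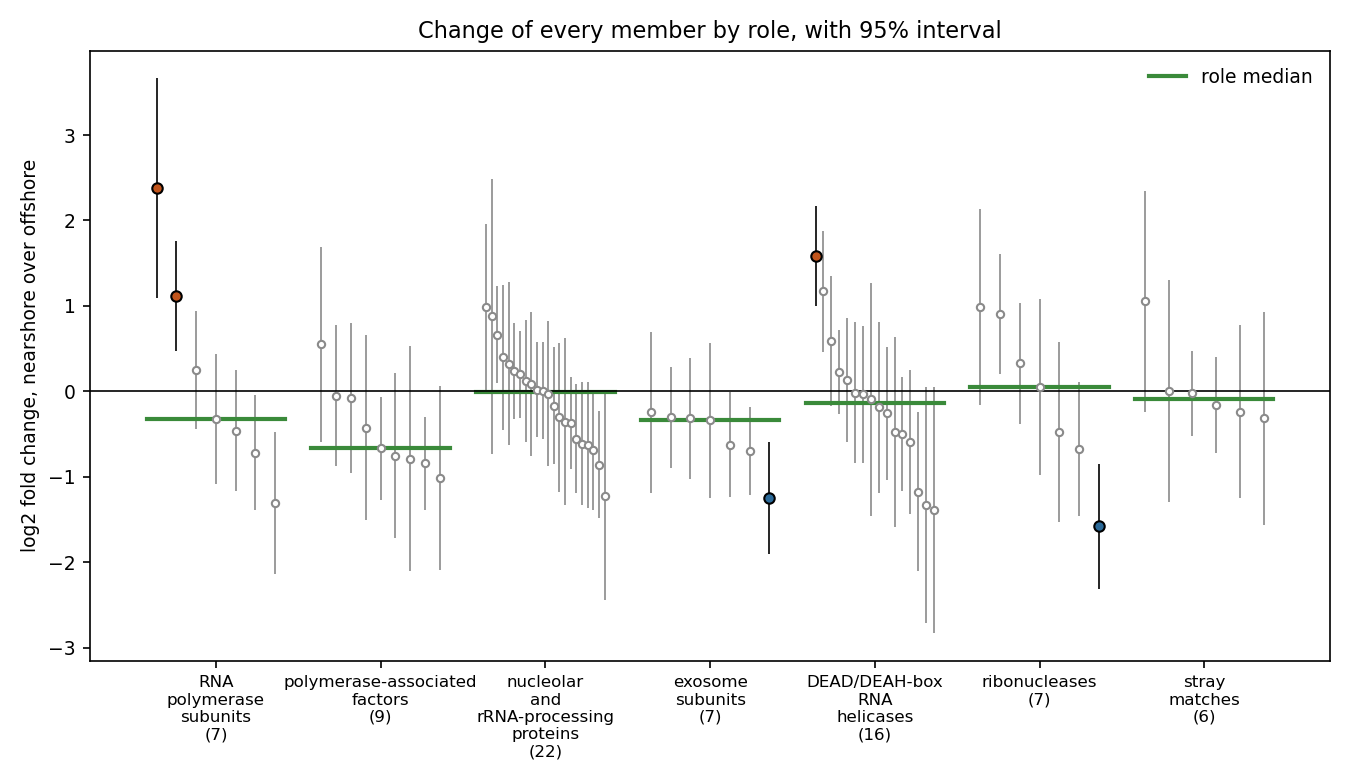
Log2 fold change, nearshore over offshore, of each title by role (points) with its 95% interval, and the median of each role (green line). Filled orange points rose, filled blue points fell, and open points did not pass. The 2 polymerase subunits that rose lie above the other 5, and all 7 exosome subunits lie below 0.

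Of the 9 polymerase-associated factors 0 passed in limma, and 2 (22.2%) had an unadjusted p under 0.05, against 26.1% of all titles. Means were lower nearshore for 8 of the 9, and the median log2 fold change was -0.67. Mediator carries signals from bound activators to polymerase II. Its subunit 18 had 5.74 in NF1, 5.44 in NF3 and 5.52 in NM3, against 6.27, 6.70, 6.23 and 6.44 in OF1 to OF4. These groups did not overlap, and the log2 fold change was -0.84 (SE 0.23, adjusted p = 0.0674). Subunit 6 had 9.54 in NF1, 9.68 in NF3 and 9.47 in NM3, against 10.22, 10.21, 9.84 and 10.66 in OF1 to OF4, also without overlap, and its log2 fold change was -0.67 (adjusted p = 0.154). Subunit 19 had a log2 fold change of -0.42 with values that overlapped. The Paf1 title, a complex that travels with elongating polymerase II, was at 6.07 in NF1, 7.83 in NF3 and 7.83 in NM3, against 8.09, 8.17, 8.22 and 8.54 in OF1 to OF4. The offshore animals were close together and NF1 was far below them. Its log2 fold change of -1.02 (adjusted p = 0.213) became -0.43 without NF1. TAF5, TAF6 and TAF7, subunits of the TFIID complex that recognises promoters, had log2 fold changes of -0.76, -0.05 and -0.08. TAF5 and TAF6 were dim, with mean signals over all animals of 1.63 and 2.59.

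For other titles of this role 1 animal stood far from the rest. BRF1, the polymerase III initiation factor, had 5.28 in NF1 and 4.92 in NF3 but 2.94 in NM3, against 5.43, 5.26, 4.64 and 5.35 in OF1 to OF4. Its SD of 1.26 was the largest of the 74 titles among nearshore animals, and its log2 fold change of -0.79 became -0.07 without NM3 and -1.24 without NF1. RNA Polymerase II Transcription Factor had 3.19 in NM3, against 1.33 and 1.33 in NF1 and NF3 and 1.07 to 1.73 offshore. These signals are near the bottom of the scale. With arrays weighted in limma, NM3 had the lowest weight of all arrays (0.52), and the log2 fold change of BRF1 was -0.49. The median SD of the role was 0.61 nearshore and 0.36 offshore, against 0.54 nearshore and 0.44 offshore over all titles.

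The 22 nucleolar and rRNA-processing titles showed no common direction. In limma 0 passed and 4 (18.2%) had an unadjusted p under 0.05, against 26.1% of all titles, and 11 means were higher and 11 lower nearshore, with a median log2 fold change of -0.01. Fibrillarin, the methyltransferase of box C/D small nucleolar ribonucleoproteins and the usual marker of the nucleolus, had 12.95 in NF1, 12.67 in NF3 and 12.68 in NM3, against 12.55, 13.09, 12.65 and 12.70 in OF1 to OF4. Its log2 fold change was 0.02, and the 95% interval ran from -0.54 to 0.57. Nucleolar Protein 5, a partner of fibrillarin also called NOP58, had a log2 fold change of 0.32 (interval -0.63 to 1.28). Nucleolar Protein At 60B, the fly name of the pseudouridine synthase dyskerin, had 11.91 in NF1, 12.68 in NF3 and 12.71 in NM3, against 12.76 to 13.49 offshore, a log2 change of -0.61 (adjusted p = 0.261).

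Titles of this role with the smallest p went both ways. Mitochondrial RRNA Methyltransferase 1 Homolog, which acts on the ribosome of mitochondria and not in the nucleolus, had 8.17 in NF1, 7.76 in NF3 and 7.47 in NM3, against 8.46, 8.98, 8.51 and 8.69 in OF1 to OF4 (log2 fold change -0.86, SE 0.27, adjusted p = 0.0935). IMP4, a component of the U3 ribonucleoprotein that guides the first cuts of the precursor, had 8.11 in NF1, 8.40 in NF3 and 8.28 in NM3, against 7.28, 7.49, 7.85 and 7.78 in OF1 to OF4 (log2 fold change 0.66, SE 0.24, adjusted p = 0.134). Neither pair of groups overlapped, and neither title passed. Nucleolar Complex Associated 2 Homolog, which escorts the large subunit precursor, had 6.09 in NF1, 7.61 in NF3 and 7.88 in NM3, against 8.12, 7.75, 8.84 and 9.0 in OF1 to OF4 (log2 fold change -1.23, adjusted p = 0.184), and the value became -0.68 without NF1.

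Nucleolin is an abundant nucleolar protein that binds rRNA and rDNA chromatin, and it is named here after its values were seen. It had 15.91 in NF1, 14.44 in NF3 and 14.37 in NM3, against 13.72, 14.26, 13.96 and 13.73 in OF1 to OF4. The lowest nearshore value lay just above the highest offshore one, and the log2 fold change of 0.99 did not pass (adjusted p = 0.184). The related titles Nucleolar Complex Associated 3 and 4 had log2 fold changes of 0.12 and 0.01. Of the factors of later steps 0 passed. The NEP1 title, a methyltransferase of the small subunit rRNA, had a log2 fold change of -0.55, Similar To Ribosome Biogenesis Regulatory Protein Homolog at 0.24, the RLP24 title, a large subunit assembly factor, at -0.31 and TSR1, which acts late on the small subunit, at -0.35. TSR1 was dim, with signals from 1.10 to 2.64. Nucleolar Protein 10, a processome protein, had a log2 fold change of -0.03. Nucleolar Protein 1 had the largest SD of all 74 titles among offshore animals, 1.03, with values of 2.25 in NF1, 4.24 in NF3 and 2.49 in NM3, against 3.41, 1.68, 2.37 and 1.00 in OF1, OF2, OF3 and OF4. Its log2 fold change of 0.88 (adjusted p = 0.479) became 0.25 without NF3 and 0.51 without OF4. All signals of this title lay below the table's median of 5.17. The median offshore SD was 0.52 over all titles below that level and 0.38 over those above it.

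The exosome is a barrel of subunits with a cap of RNA-binding subunits, and 7 of its components are in the table. All 7 had lower means nearshore, where 50.6% of all titles did, and the median log2 fold change was -0.34. In limma 1 fell and 0 rose (14.3% passed, against 9.24% of all titles), a share that rests on 1 title. Exosome Component 1, a subunit of the cap, had 8.02 in NF1, 7.67 in NF3 and 8.12 in NM3, against 8.68, 9.39, 9.17 and 9.50 in OF1 to OF4. The groups did not overlap, and OF1 was again the offshore animal nearest to the nearshore values. The mean was 7.94 ± 0.24 (SD, n = 3) nearshore and 9.19 ± 0.37 (n = 4) offshore, a log2 change of -1.25 (SE 0.28, adjusted p = 0.0397), or 0.421 times the offshore level. The call held in 1 of the 7 fits that left out 1 array, that without OF1, and in the other 6 the adjusted p ran from 0.0593 without NM3 to 0.108 without OF4, with changes from -1.34 to -1.11.

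Exosome Component 6, a subunit of the barrel, had nearly the same signal in all nearshore animals, 11.69 in NF1, 11.65 in NF3 and 11.66 in NM3, against 12.11, 12.44, 12.60 and 12.30 in OF1 to OF4. Its log2 fold change was -0.70 (SE 0.22, adjusted p = 0.0997), which missed the threshold. Exosome Component 5, also of the barrel, had 7.48 in NF1, 7.59 in NF3 and 7.80 in NM3, against 7.76, 8.33, 8.50 and 8.41 in OF1 to OF4, so that OF1 lay inside the nearshore range. Its log2 fold change was -0.62 (adjusted p = 0.187). Component 8 had 10.01 in NF1, 10.41 in NF3 and 9.91 in NM3, against 10.21, 10.21, 10.53 and 10.71 in OF1 to OF4, a log2 fold change of -0.31. The log2 fold changes of components 2, 7 and 9 lay between -0.34 and -0.24, with intervals that span 0. Over the 7 subunits the median deviation read -0.67 in NF1, -0.66 in NF3 and -0.45 in NM3, against -0.49, 0.08, 0.11 and 0.23 in OF1 to OF4, so OF1 lay among the nearshore animals. OF1 was the lowest offshore animal for 6 of the 7 subunits.

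**Figure D4:**
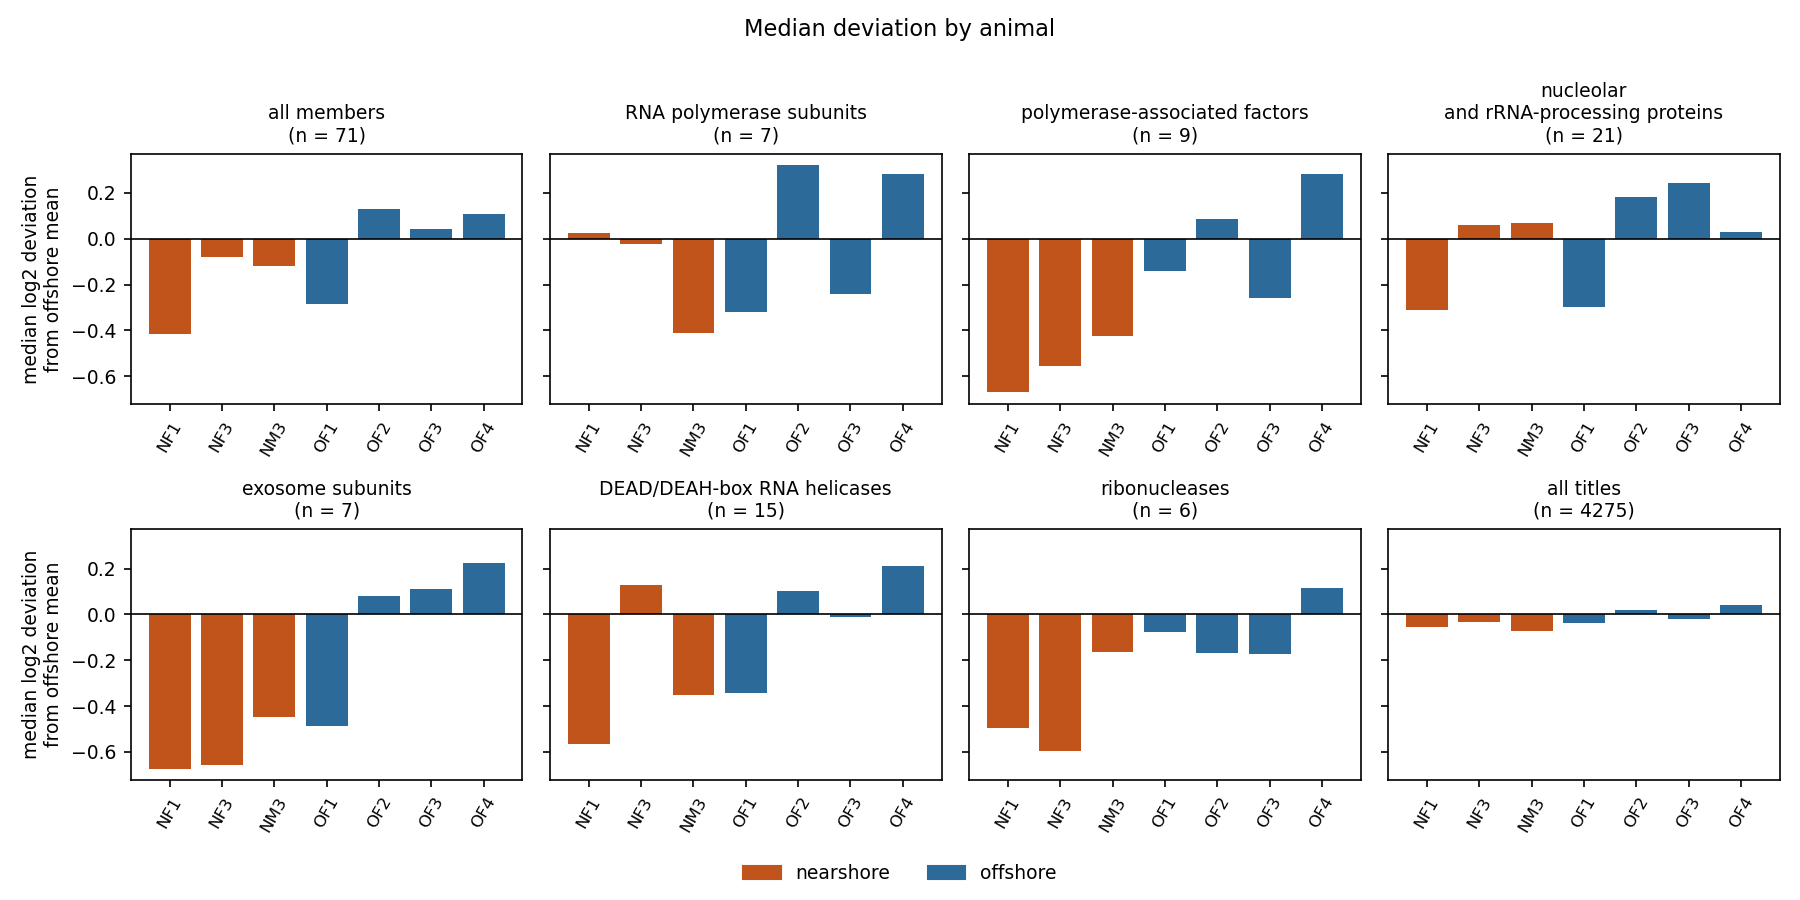
Median log2 deviation from the offshore mean in each animal (bars, nearshore orange and left, offshore blue and right), for all complete titles of the set, for each role and for all 4275 complete titles of the table. OF1 is below 0 in every panel, and its bar stands level with the nearshore animals for the exosome subunits, while all titles together stay close to 0.

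Of the 16 DEAD and DEAH box helicases 1 rose and 0 fell (6.25% passed, against 9.24% of all titles), and the median log2 fold change was -0.14. DEAD Box Polypeptide 48, known as eIF4A3, clamps onto spliced messenger RNA as the core of the exon junction complex. Its log2 signal read 14.38 in NF1, 14.10 in NF3 and 13.84 in NM3, against 12.82, 12.54, 12.30 and 12.43 in OF1 to OF4. The gap between the groups, about 1 log2 unit between the lowest nearshore and the highest offshore animal, was wider than the range within either group. The mean was 14.11 ± 0.27 (SD, n = 3) nearshore and 12.52 ± 0.22 (n = 4) offshore, a log2 change of 1.59 (SE 0.25, adjusted p = 0.0176), or 3.00-fold. This title passed in all 10 alternatives that kept every array. It had adjusted p = 0.0503 without NF1, 0.0597 without OF3 and 0.0623 without OF4, with changes of 1.45, 1.51 and 1.55, and it passed in the other 4 fits that left out 1 array.

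DEAD Box Polypeptide 17, a coactivator and RNA-processing helicase also known as p72, had 7.35 in NF1, 8.29 in NF3 and 7.61 in NM3, against 6.26, 6.51, 6.68 and 6.86 in OF1 to OF4. The groups did not overlap, and the log2 fold change of 1.17 (SE 0.30) just missed the threshold (adjusted p = 0.0560). It passed after cyclic loess (adjusted p = 0.0377) and without the 25% dimmest titles (adjusted p = 0.0489). Its close relative DEAD Box Polypeptide 5, known as p68, had 6.27 in NF1, 7.49 in NF3 and 4.99 in NM3, against 7.14, 7.18, 7.71 and 8.51 in OF1 to OF4, a log2 change of -1.39 (adjusted p = 0.207). NF3 lay inside the offshore range for this title while NM3 was far below it, and without NM3 the value was -0.76.

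Helicases that act on pre-ribosomes in yeast and human cells had changes on both sides of 0. DEAD Box Polypeptide 47, needed for the small subunit rRNA, had 6.35 in NF1, 7.42 in NF3 and 7.78 in NM3, against 7.82, 8.60, 8.42 and 8.60 in OF1 to OF4. The highest nearshore value was only just below OF1, and the log2 fold change was -1.17 (SE 0.40, adjusted p = 0.114), or -0.76 without NF1. Polypeptides 18 and 27, whose relatives act on the large subunit precursor, had log2 changes of -0.50 and -0.59, and polypeptides 49 and 56 at 0.13 and 0.59. None of these 4 passed, and that of polypeptide 56 rests on 2 nearshore animals.

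Other helicases of messenger RNA splicing and export did not pass. DEAH Box Polypeptide 15, which takes spent splicing complexes apart, had a log2 fold change of -0.03, DEAH Box Polypeptide 35 at -0.02 and DEAH Box Polypeptide 38 at -0.19. DEAD Box Polypeptide 39, an export helicase, had 14.72 to 14.90 nearshore and 14.50 to 14.77 offshore, a log2 fold change of 0.23 (95% interval -0.26 to 0.72). DEAH Box Polypeptide 8, which releases spliced messenger RNA, had 2.28 in NF1, 2.24 in NF3 and 0.98 in NM3, against 3.66, 3.80, 3.48 and 1.72 in OF1 to OF4. These signals are near the bottom of the scale, OF4 lay inside the nearshore range, and the log2 fold change of -1.33 did not pass (adjusted p = 0.206). The remaining helicase titles were also dim. The DEAH Box Polypeptide 57 title had a log2 fold change of -0.48, DEAH Box Polypeptide 36, which unwinds quadruplexes, at -0.25 and DEAD/H Box Polypeptide 19, an export factor at the nuclear pore, at -0.09. The last had 4.21 in NF3, against 1.88 and 2.42 in NF1 and NM3 and 2.45 to 3.70 offshore.

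Of the 7 ribonucleases 1 fell and 0 rose (14.3% passed, against 9.24% of all titles), a share that rests on 1 title. The median log2 fold change was 0.05. Ribonuclease H1, which cuts the RNA strand of RNA-DNA hybrids and serves mitochondrial DNA replication, had 7.55 in NF1, 8.27 in NF3 and 7.61 in NM3, against 9.06, 9.40, 9.18 and 9.91 in OF1 to OF4. Every nearshore animal was below every offshore animal, and the gap between NF3 and OF1 exceeded the SD of either group. The mean was 7.81 ± 0.40 (SD, n = 3) nearshore and 9.39 ± 0.38 (n = 4) offshore, a log2 change of -1.58 (SE 0.31, adjusted p = 0.0295), or 0.335 times the offshore level. The call held without NF3 or OF1. In the other 5 fits that left out 1 array the adjusted p ran from 0.0622 without NM3 to 0.0820 without NF1, with changes from -1.65 to -1.41.

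Ribonuclease H2, Large Subunit, the catalytic subunit of the enzyme that also removes single ribonucleotides from DNA, had 6.36 in NF1, 6.40 in NF3 and 6.55 in NM3, against 7.04, 6.63, 6.87 and 7.91 in OF1 to OF4. The groups barely separated, and the log2 fold change of -0.68 did not pass (adjusted p = 0.258) and was -0.41 without OF4. The 21kDa subunit of ribonuclease P, which trims the 5′ end of transfer RNA, had 10.38 in NF1 and 10.06 in NF3 and no value in NM3, against 9.28, 9.65, 9.29 and 9.05 in OF1 to OF4. Its log2 fold change was 0.90 (SE 0.29, adjusted p = 0.113). The title DCL1; ATP-dependent Helicase/ Ribonuclease III, named after a plant Dicer-like enzyme, had dim signals of 2.20 in NF1, 3.89 in NF3 and 2.87 in NM3, against 2.10, 1.80, 2.78 and 1.31 in OF1 to OF4 (log2 fold change 0.99, adjusted p = 0.256). Without NF3 the value was 0.54. The other ribonuclease titles were dim and did not pass: Ribonuclease H-like Protein had a log2 fold change of 0.33, Ribonuclease/ Transcriptional Repressor at -0.48 and Putative 5-3 Exoribonuclease at 0.05. The 6 titles caught by a word only had signals near the bottom of the scale and 0 calls in limma, also 0 at an unadjusted p under 0.05, with log2 fold changes from -0.32 to 1.05. Among them the title for reverse transcriptase and ribonuclease H had a log2 fold change of 1.05, or 0.60 without NM3 and 1.61 without NF3, and the RNA Polymerase Beta Chain and Beta Subunit titles had -0.32 and -0.16. With 1 array left out the Beta Chain value ran from -0.86 without NM3 to -0.04 without NF3, and the Beta Subunit value was -0.02 without OF1. The deoxyribonuclease, sigma factor and 5S rRNA binding titles had log2 fold changes of -0.24, -0.03 and 0.00.

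Some proteins are in the table under 2 or 3 titles of the same or a related name, and 6 of these were compared after the data were seen. The MKI67-interacting nucleolar phosphoprotein, a protein of the perinucleolar and mitotic chromosome surface, has 3 titles with log2 fold changes of -0.63, -0.37 and -0.17, all with the same sign. Nucleolar Protein 5A, a fibrillarin partner also called NOP56, had a log2 fold change of 0.09, and Similar To Nucleolar Protein 5A at 0.40. A title NOP56 outside the 74, with signals from 1.75 to 2.67, had a log2 fold change of -0.54. The 2 UTP11-like titles, a processome protein, had log2 fold changes of -0.69 and 0.20.

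The titles of the helicase p72 lay farthest apart among these 6 proteins. DEAD Box Polypeptide 17 had a log2 fold change of 1.17, whereas Similar To Probable RNA-dependent Helicase P72, a title outside the 74 that names the same protein, had a log2 change of -1.07 (SE 0.62, adjusted p = 0.328). The P72 title had 7.19 in NF1, 9.14 in NF3 and 7.28 in NM3, against 8.36, 8.19, 9.37 and 9.84 in OF1 to OF4, so NF3 lay inside the offshore range. Pescadillo, a large subunit assembly factor outside the 74, also had titles of unlike sign, with log2 fold changes of 0.62 for one title and -0.75 for the other, neither of which passed. Whether such titles stand for 1 conch gene, for related genes or for unlike probes was not tested, and a value above holds for its title.

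**Figure D5:**
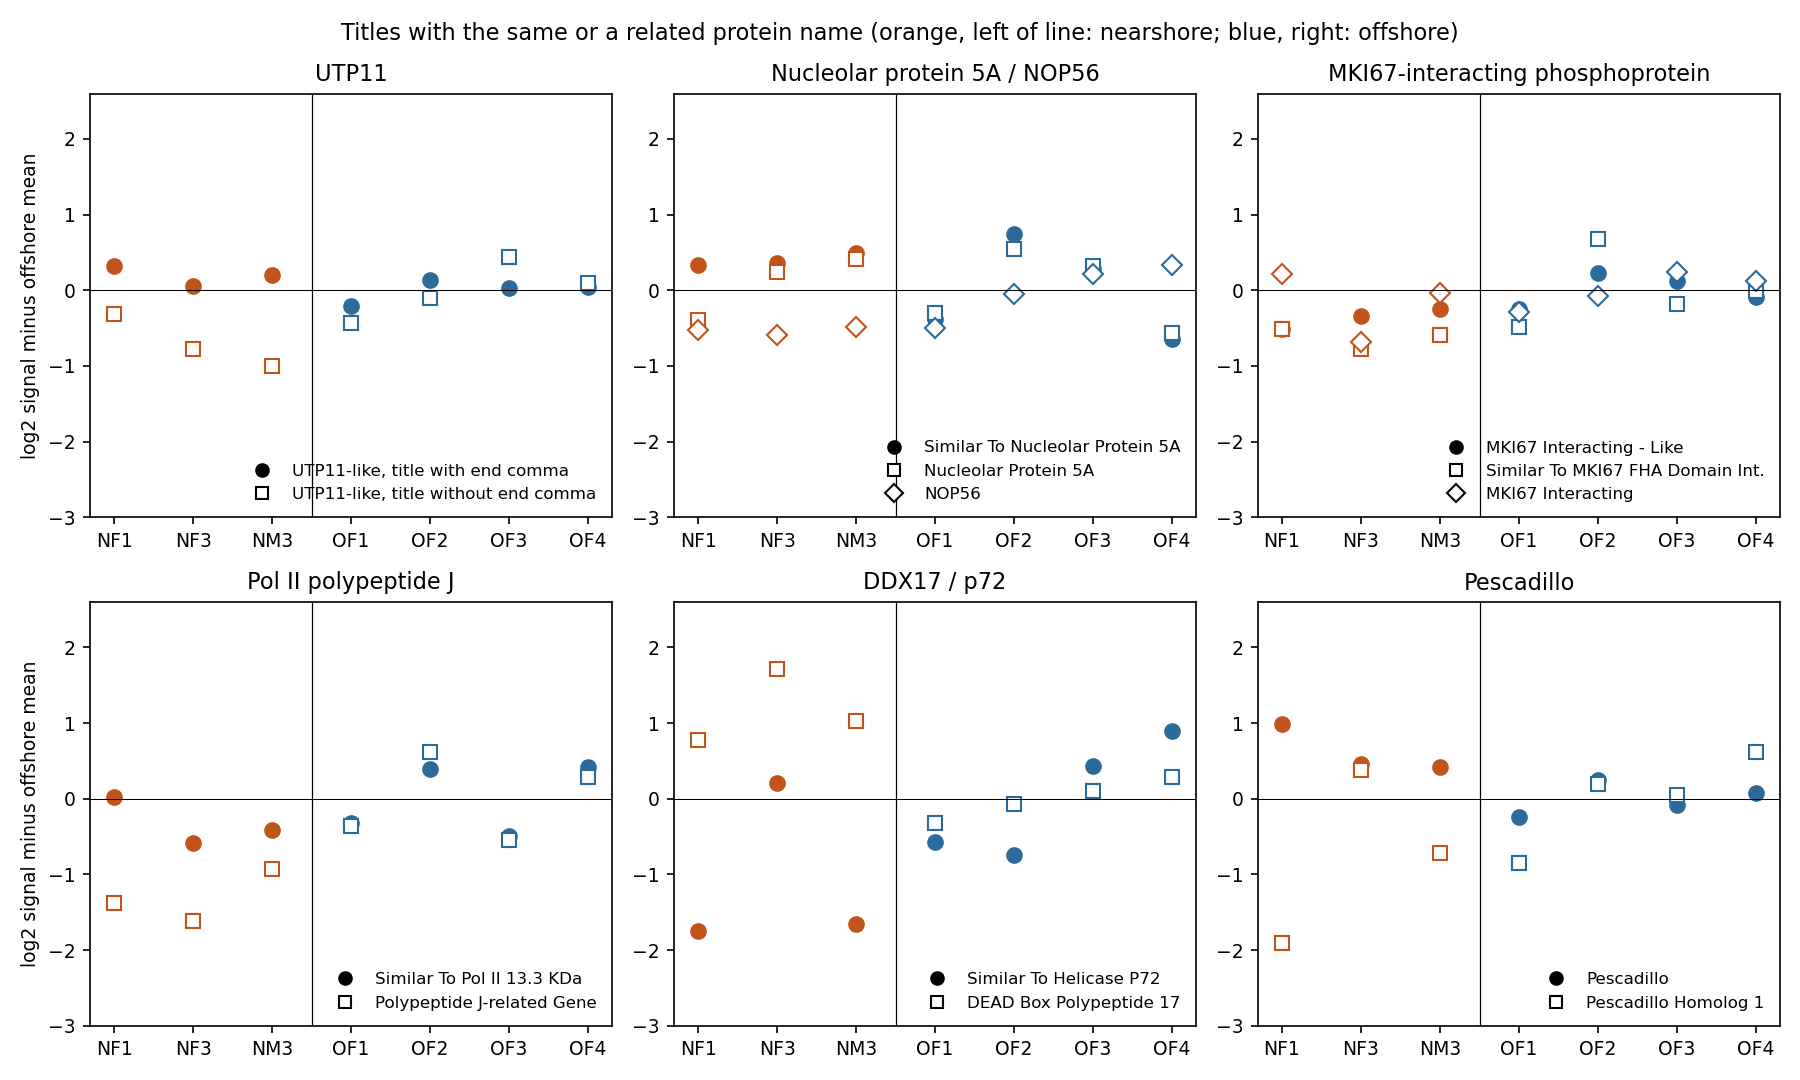
Log2 signal minus the offshore mean of each title (symbols) in each animal, for 6 proteins that have 2 or 3 titles of the same or a related name, with nearshore animals orange and left of the line and offshore animals blue and right. The 2 titles for DDX17, or p72, lie on opposite sides of 0 in NF1 and NM3, and the 2 polypeptide J titles differ nearshore but nearly coincide offshore.

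Other titles of the same pathways, outside the 74, were listed by name. These 27 titles cover general transcription factors, ribosome assembly, other RNA helicases and messenger RNA decay. The decay list takes in LSM titles, among them LSM11, which is named for U7 RNA. Of the 27, 0 rose and 1 fell (3.7%, against 9.24% of all titles), a share that rests on 1 title. Their median log2 fold change was -0.07, and 25.9% had groups without overlap, against 24.4% of all titles. The one that fell was LSM5 Homolog, U6 Small Nuclear RNA Associated, a subunit of the ring that binds U6 RNA and the ends of decaying messages. It had 10.03 in NF1, 9.72 in NF3 and 9.57 in NM3, against 10.52, 10.85, 10.84 and 10.78 in OF1 to OF4, a log2 change of -0.97 (SE 0.23, adjusted p = 0.0439). Transcription Elongation Factor B, Polypeptide 1, or elongin C, had a log2 change of 1.57 (adjusted p = 0.0988). Of the 7 ribosome assembly titles 6 had lower means nearshore, and of a further 11 assembly titles, added after the data were seen, 9 did. In limma 0 of these 18 passed, and 3 had an unadjusted p under 0.05, where 26.1% of all titles did. Of these 3, Pescadillo was higher nearshore, at 0.62, and the other 2 were lower. The smallest p of the 18 was that of WD Repeat Domain 50, whose groups did not overlap. Its log2 fold change was -1.24 (SE 0.37, adjusted p = 0.0863 in limma). Nucleophosmin, a nucleolar chaperone, had log2 fold changes of -0.78 (adjusted p = 0.184) and -1.22 (SE 0.74, adjusted p = 0.357) under its 2 titles. The second title has no value in NM3. It had 11.38 in NF1 and 13.62 in NF3, against 13.02 to 14.73 offshore, so NF3 lay inside the offshore range.

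At each site 1 animal was often the lowest. Among the 71 complete titles, OF1 was the lowest of the 4 offshore animals for 38 (53.5%), where it was the lowest for 28.9% of all complete titles in the table. For the nucleolar and rRNA-processing role it was the lowest for 14 of 21, and for the helicases for 9 of 15. OF2, OF3 and OF4 were the lowest for 6, 14 and 13 of the 71 titles. The matrix medians were 0.64, 0.51, -0.34 and -0.43 in OF1 to OF4, and the muscle medians 0.27, 0.31, -0.03 and -0.68. Whether tissue makeup bears on these ranks was not tested. Among nearshore animals NF1 was the lowest for 36 of the 71 (50.7%), against 32.1% of all complete titles. In the helicases NF1 was the lowest for 11 of 15 and NF3 for 0, and NF3 was the highest for 9.

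Against the offshore range, NF1 was below every offshore animal for 29 of 74 titles (39.2%) and above for 12 (16.2%), where over all titles the shares were 29.9% below and 30% above. NF3 was below for 25 (33.8%) and above for 18 (24.3%), against 27% and 28.8% over all titles. NM3 was below for 26 of 71 (36.6%) and above for 16 (22.5%), against 33.2% and 28% over all titles. The median SD among the animals of a site was 0.42 nearshore and 0.37 offshore for the 74 titles, and 0.54 nearshore and 0.44 offshore for all titles.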

How the data were processed

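Ovary RNA of 7 conchs was measured on single-colour Cy3 arrays, 1 animal per array. Per the submitters' processing notes, Agilent Feature Extraction was used. Each array has 1 deposited log2 value per title. The log base, read as 2, the normalization, the background treatment and the way probes were joined to titles are not stated in the sources used. The columns have nearly equal means and were used as deposited. The table carries no detection calls, so no title was filtered, and the number of arrays limits the precision. Slide and extraction batches were not analysed here.

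Groups follow the location label. Each of the 4328 titles was fitted with limma 3.58.1 in R 4.3.3 (lmFit and eBayes, group as the only term), two-sided, with adjustment over all titles. The fit was tested on simulated data. Members and lists were chosen with earlier results of these data known. Titles were named by rule: each that passed, the 3 others per role with the smallest p, and the 2 with the largest SD in each group. Others were named to show their role or spread, after their values were seen. The alternatives were 3 normalizations, a filter on dim titles, complete titles, array weights, 3 variance settings, another threshold, averaging of titles and leaving out each array.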

Additional observations from a re-analysis of the deposited data

Results flagged for a closer look

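Among the offshore values of 29 titles named by rule, and the offshore medians over the 71 complete titles, 1 group held an animal far from the others. DEAH Box Polypeptide 8 had a log2 signal of 1.72 in OF4, while the other 3 offshore animals were at 3.48 to 3.80. Chance flags about 1 in 20 groups chosen without regard to spread, but this title was named in part for its large offshore SD, so that rate does not apply to it. Nearshore groups of 3 were too small for this check.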

How the results depend on the processing

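The median log2 fold change of the 74 titles was -0.24 and stayed between -0.40 (without OF1) and -0.10 (without NF1) over the alternatives, which is within the spread of the animals' medians. The counts were less stable. They were 3 higher and 2 lower as reported, and 1 and 0 with no moderation of the variances, where 18 titles had an unadjusted p under 0.05 and 3.3% of all titles passed. At an adjusted p under 0.1 they were 4 and 6, where 15.2% of all titles passed. Leaving out 1 array gave 0 to 2 higher and 0 to 2 lower, with 0.786% to 6.98% of all titles passing. In limma 0 titles passed without NF1, OF3 or OF4, and then 15, 15 and 14 had an unadjusted p under 0.05. They were 1 higher and 0 lower without OF2, 1 and 1 without NF3, 2 and 0 without NM3, and 2 and 2 without OF1. All other alternatives gave 2 to 4 higher and 2 lower. Leaving out the 6 titles caught by a word only, chosen after seeing the data, kept 3 and 2, and taking only the 51 titles above the median signal, also chosen then, gave 2 and 2. For the titles named by rule, 448 of the recomputed values kept their direction and their side of the threshold, 36 no longer passed, 2 newly passed and none reversed. All 36 belong to the 5 titles that passed in the main fit, because only a title that passed there could stop passing. Most of the 448 belong to titles that had not passed there, so they say little about how stable the 5 calls were. No paired analysis was possible because the numbers in the animals' codes name animals of separate sites, and the number 3 occurs in 2 nearshore codes. With 3 and 4 arrays, small differences could not be called.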
